A study of Mus musculus with 6 samples.

Results

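Imprinted genes are transcribed from a single parental copy, and several of the best known are expressed strongly in neurons. The genes described here were 9 mouse imprinted genes and imprinted long noncoding RNAs, taken by symbol from the deposited count table, and all 9 had a row. The table held 23284 rows, of which 15258 passed the filter on low counts and were tested, and all 9 imprinted genes were among those tested. By the parent whose copy is active, 3 are maternally expressed (Meg3, Rian and Mirg) and 5 are paternally expressed (Peg3, Ndn, Snrpn, Nnat and Impact). Grb10 was kept apart, because its active copy is the maternal one in most tissues and the paternal one in neurons. The counts did not separate alleles, so every value below is the sum over both parental copies.

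The tissue was prefrontal cortex of C57BL/6 mice, wild type and aged 8 to 10 weeks, and the assay was RNA sequencing. The single-housed group (n = 3 libraries) had lived alone for 6 days and the group-housed group (n = 3 libraries) had lived with other mice for the same 6 days; the question was what housing does to gene expression in this region. The growth protocol names the strain C57BL/6J and an age of 8 weeks. Nothing in the labels ties the 3 libraries of a group to separate mice, and the spread that the p-values rest on may therefore be partly technical. Libraries were made from polyadenylated RNA with a strand-keeping kit. Total counts per library ran between 25858355 and 33428512. All 7 markers of cortical excitatory neurons were present, at a summed 6032 to 6620 CPM (read counts relative to library size, scaled by TMM) in single-housed libraries and 5831 to 6839 CPM in group-housed libraries. All 18 striatal markers had counts too, none at 0 in every library, and their summed level was 515 to 2840 CPM in single-housed libraries and 545 to 1349 CPM in group-housed libraries.

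Meg3, Rian and Mirg are read in the same direction from a single imprinted domain on the distal part of mouse chromosome 12. Meg3 is a long noncoding RNA, Rian carries small nucleolar RNAs of the C/D box kind in its introns, and Mirg carries a large cluster of microRNAs. Dlk1, Rtl1 and Dio3 are protein-coding genes of the same domain and are expressed from the paternal copy. Peg3, Ndn and Snrpn belong to imprinted domains on chromosome 7, and DNA methylation laid down in the germ line at CG sites marks the silent copy in such domains.

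Windows around RefSeq transcription starts (build GRCm38.p6) are shown for the pairs of genes whose levels had the highest positive correlations across libraries, Meg3 with Rian and Peg3 with Grb10. Each window holds 300 bases, 250 before the start and 50 after it, is written 5′ to 3′ on the gene's strand, and has every CG in capitals. The Meg3 window lies at chr12:109540746-109541045 on the plus strand, the Rian window at chr12:109603695-109603994 on the plus strand, the Peg3 window at chr7:6730370-6730669 on the minus strand, and the Grb10 window at chr11:12037371-12037670 on the minus strand.
Meg3: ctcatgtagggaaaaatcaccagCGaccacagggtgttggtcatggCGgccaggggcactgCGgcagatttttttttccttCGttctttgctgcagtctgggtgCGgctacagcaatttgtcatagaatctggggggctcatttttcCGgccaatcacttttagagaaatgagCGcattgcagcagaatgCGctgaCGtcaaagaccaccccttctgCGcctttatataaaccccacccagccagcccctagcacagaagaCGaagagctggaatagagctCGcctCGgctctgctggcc
Rian: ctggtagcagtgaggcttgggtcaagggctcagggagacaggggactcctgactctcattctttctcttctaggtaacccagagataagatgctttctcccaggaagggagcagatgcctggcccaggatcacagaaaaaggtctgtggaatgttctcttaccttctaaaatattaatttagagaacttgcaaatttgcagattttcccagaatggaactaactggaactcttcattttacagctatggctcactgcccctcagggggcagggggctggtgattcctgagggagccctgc
Peg3: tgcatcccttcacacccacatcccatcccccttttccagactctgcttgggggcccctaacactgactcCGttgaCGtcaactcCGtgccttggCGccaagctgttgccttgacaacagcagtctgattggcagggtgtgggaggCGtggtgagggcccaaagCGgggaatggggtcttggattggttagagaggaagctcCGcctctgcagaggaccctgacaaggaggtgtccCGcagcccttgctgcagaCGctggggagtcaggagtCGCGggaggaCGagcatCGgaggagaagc
Grb10: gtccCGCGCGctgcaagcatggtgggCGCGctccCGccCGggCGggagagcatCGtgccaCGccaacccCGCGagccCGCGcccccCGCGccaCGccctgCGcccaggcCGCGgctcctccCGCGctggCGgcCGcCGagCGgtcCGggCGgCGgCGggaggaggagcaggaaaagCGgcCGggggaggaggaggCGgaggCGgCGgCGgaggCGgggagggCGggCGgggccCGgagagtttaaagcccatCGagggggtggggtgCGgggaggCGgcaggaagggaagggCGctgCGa

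The Meg3 and Peg3 windows held 13 CG each and the Rian window held 0, against a median of 7 over the 32851 windows of the RefSeq table. This Grb10 window held 45 CG, a number that 1.93% of all windows reached. Windows were present for 8 of the 9 genes, 13 windows in all. The Nnat window held 17 CG, the Ndn window 11 and the Mirg window 10, while the 4 Snrpn windows held 2 to 7. A further Meg3 start had 1 CG in its window and a further Grb10 start had 9. The 6-base motif TGCCGC, the core of the site that the imprint-maintaining protein ZFP57 recognises, was searched on both strands, and 11.6% of all windows contained it. It occurred in the Meg3, Nnat and high-CG Grb10 windows and in 1 Snrpn window. A match in these letters is a description of the window and not a bound site.

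The spans of Meg3, Rian and Mirg wholly contained 14 rows for microRNA genes in the deposited table, 1 in Meg3, 3 in Rian and 10 in Mirg. Together these carry 27 mature sequences with 26 different seeds (bases 2 to 8). The sequences below, from RefSeq, are those of the hairpins that lie wholly inside an exon of Meg3 (miR-770) or Mirg (miR-410), and the pair of Mirg sequences that share a seed (miR-453 and miR-496a-5p). Seeds are in capitals.
miR-770-5p: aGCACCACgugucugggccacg
miR-770-3p: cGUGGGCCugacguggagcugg
miR-410-5p: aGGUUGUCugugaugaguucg
miR-410-3p: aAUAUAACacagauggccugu
miR-453: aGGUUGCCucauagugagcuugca
miR-496a-5p: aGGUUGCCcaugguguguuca

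The Mir770 row, all 94 bases of which lie in a Meg3 exon, and the Mir410 row, all 81 bases of which lie in a Mirg exon, had 0 counts in all 6 libraries, below a floor of 3 counts per library. Mir453 and Mir496, which lie in Mirg introns, had 1 to 7 and 2 to 4 counts. Across the whole table, all 308 rows whose exon bases were entirely contained in another row on the same strand had 0 counts in every library, as did all 23 rows contained only in rows on the opposite strand. Of the 20524 rows that shared no exon base with another row, 17.4% had 0 counts. A count of 0 in a contained row is therefore no measure of that RNA in these files.

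Levels of the 9 genes are given first per length, in RPKM (CPM divided by the deposited length in kilobases), since that is the scale on which genes can be compared. As RPKM mean ± SD over the 6 libraries, the order was Meg3 (221 ± 47.5), Ndn (147 ± 30.3), Rian (110 ± 7.93), Impact (85.2 ± 4.66), Nnat (53.4 ± 14.1), Peg3 (22.3 ± 4.68), Mirg (13.9 ± 2.36), Grb10 (9.75 ± 0.828) and Snrpn (0.300 ± 0.128). Meg3 ranked 186th in the table per length, and 6th by CPM, where its long transcript of 12906 exon bases weighs in. Neighbours in this order were not all separate. The library ranges of Meg3 (140 to 276 RPKM) and Ndn (88.3 to 172 RPKM) overlapped, although Meg3 was the higher in 6 of 6 libraries. Ndn and Rian overlapped as well, with Ndn the higher in 5 of 6 libraries, and so did Peg3 and Mirg (Peg3 higher in 5 of 6) and Mirg and Grb10 (Mirg higher in 6 of 6). The ranges of Rian and Impact, Impact and Nnat, Nnat and Peg3, and Grb10 and Snrpn did not overlap. The deposited level of Snrpn is no measure of its whole transcript, as 82.8% of its exon bases are shared with another row. Over only the 410 bases in no other row, Snrpn also ranked 9th. That rank takes the same counts over a shorter length, so it does not measure the shared part either. Without the division by length, only 2 of the 9 genes kept their place in the order.

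**Figure D1:**
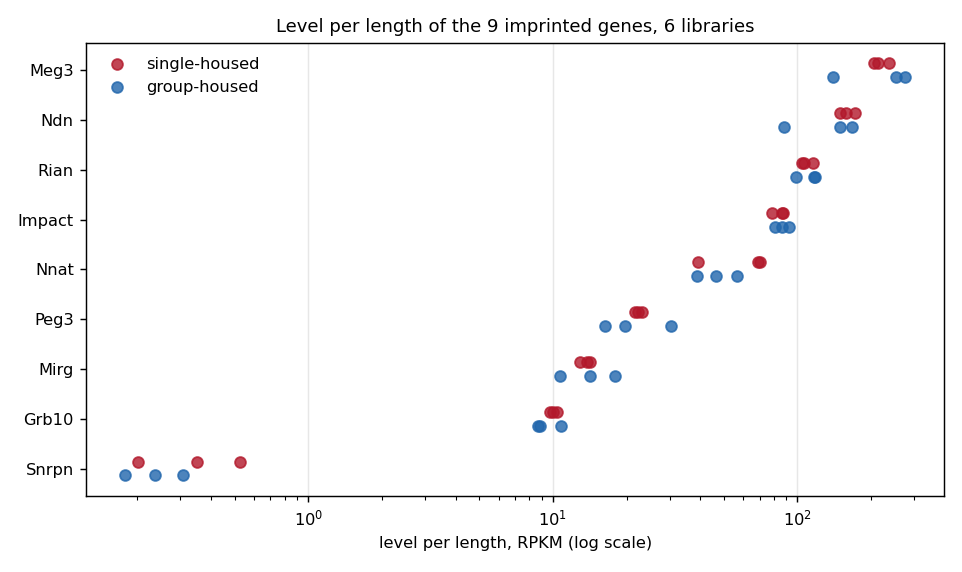
Level per length (RPKM, log scale) of the 9 imprinted genes in the 3 single-housed libraries (upper row of each gene) and the 3 group-housed libraries (lower row), one point per library. Meg3 lies highest, between 140 and 276 RPKM, and Snrpn lowest, and the ranges of both groups overlap for each gene.

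Housing left no detectable difference in any of the 9 genes at this depth and with 3 libraries in each group. With edgeR's quasi-likelihood test, adjusted over all 15258 genes, 0 of the 9 genes were called, and the background was 0% (0 genes of 15258). Without adjustment, 0 of the 9 had a p under 0.05, a level that 1.56% of all tested genes passed (238 genes). DESeq2 called 8 genes in the table (0.0524%) and 0 of these 9. The groups overlapped for all 9 genes, while 4.86% of tested genes had groups that did not overlap (2.46% with the single-housed values higher and 2.4% with them lower). A difference of more than 0.2 on the log2 scale, in either direction, was seen for 3 of the 9 genes (Ndn, Snrpn and Nnat) and 12.9% of tested genes, and one of more than 0.5 for 1 of the 9 (Snrpn) and 2.56% of tested genes. The median log2 difference, single-housed minus group-housed, was 0.02 over the 9 genes and 0.00 over all genes tested, and the median size regardless of sign was 0.06 in both. For a single gene, 3 libraries against 3 allow an exact two-sided permutation p no lower than 0.1. In bulk tissue, fewer cells of a type and less RNA per cell cannot be told apart.

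**Figure D2:**
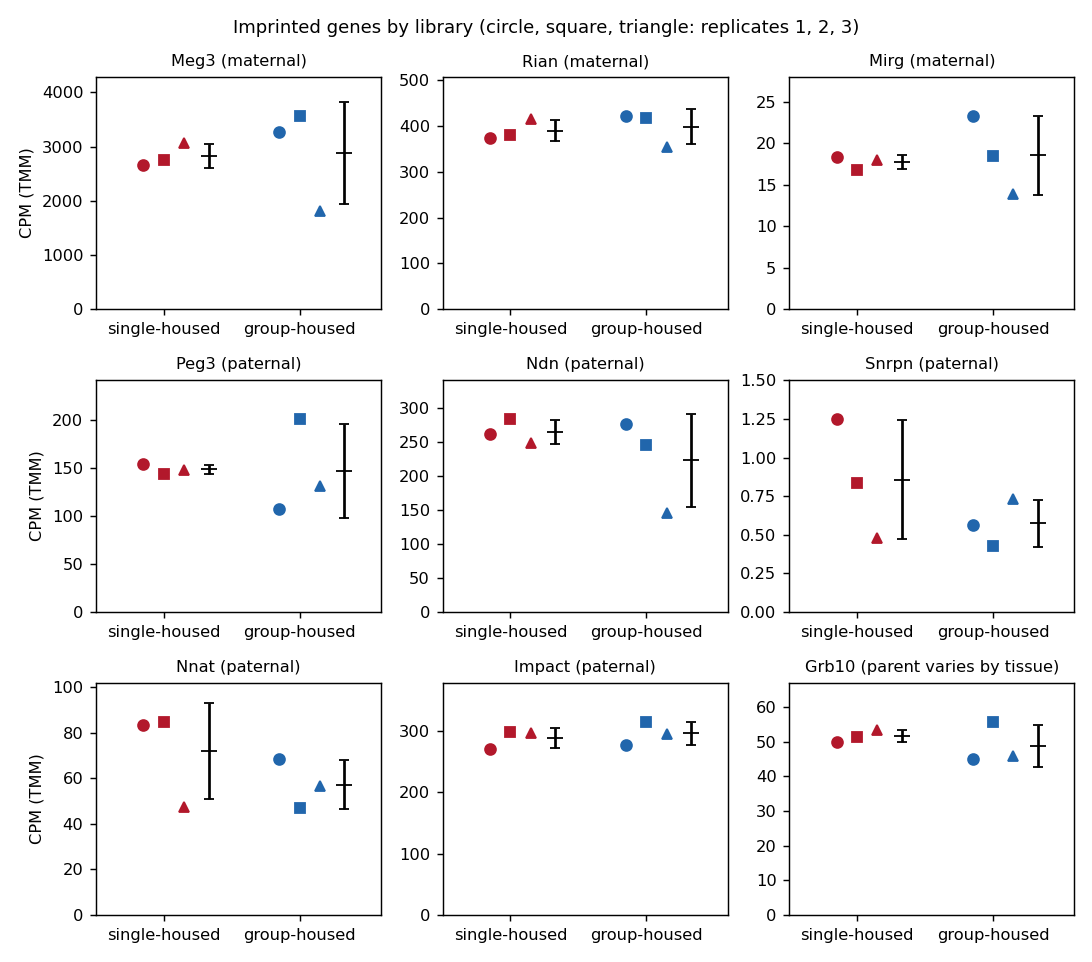
CPM (TMM-scaled, axis from 0) of each imprinted gene in the 3 single-housed (left, red) and 3 group-housed (right, blue) libraries, with the group mean and SD in black. The group-housed replicate 3 (triangle) is lowest for Meg3, Rian, Mirg and Ndn, and the groups overlap in every panel.

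Meg3 (chromosome 12, 110779206 to 110809939 in mm9, plus strand, 11 exon intervals) had 2651, 2749 and 3065 CPM in single-housed replicates 1, 2 and 3, against 3265, 3567 and 1802 CPM in group-housed replicates 1, 2 and 3. The highest and the lowest of these values were both group-housed, so the single-housed values lay within the group-housed range. The means were 2822 ± 217 CPM (SD, n = 3) in single-housed libraries and 2878 ± 944 CPM (SD, n = 3) in group-housed libraries, a log2 difference of −0.03 (SE 0.216, edgeR adjusted p = 0.9999). Without group-housed replicate 3 the difference was −0.28 (SE 0.0978), with an edgeR p of 0.0266 before and 0.9999 after adjustment.

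Rian (chromosome 12, 110842155 to 110899921, plus strand, 21 exon intervals) had 374, 380 and 416 CPM in single-housed libraries, against 422, 418 and 354 CPM in group-housed libraries. Its order over the libraries was that of Meg3, apart from the top pair, with a narrower range. Single-housed minus group-housed, the log2 difference was −0.03 (SE 0.0895), and its 95% interval ran between −0.23 and 0.17.

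Mirg (chromosome 12, 110973191 to 110987667, plus strand, 8 exon intervals) had 18.4, 16.8 and 17.9 CPM in single-housed libraries, against 23.3, 18.4 and 13.8 CPM in group-housed libraries. As for Rian, group-housed replicate 1 was highest and replicate 3 lowest, and all single-housed values lay between them. Its log2 difference between the groups was −0.06 (SE 0.168). As a list, 3 of 3 maternally expressed genes were lower in single-housed libraries (median log2 difference −0.03), where 49.3% of all tested genes were lower.

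The balance between the 3 transcripts also varied by library. Per length, the ratio of Meg3 to Rian was 1.97, 2.01 and 2.04 in single-housed libraries, against 2.15, 2.37 and 1.41 in group-housed libraries. Group-housed replicate 3 therefore stood below the other 5 libraries in Meg3 relative to Rian as well. The ratio of Rian to Mirg was 7.38, 8.20 and 8.42 in single-housed libraries, against 6.58, 8.22 and 9.29 in group-housed libraries, and there the groups overlapped with the extremes in group-housed libraries.

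Among the 36 pairs of the 9 genes, levels of Meg3 and Rian had the highest Pearson correlation over the 6 libraries. On log2 CPM, r was 0.92 (exact permutation p = 0.0139, adjusted over the 36 pairs 0.250) and Spearman's rho was 0.94 (exact permutation p = 0.0167, adjusted 0.463). With the pair of libraries farthest from the median of Meg3 left out, r was 0.98. Peg3 and Grb10 had r = 0.89 (exact permutation p = 0.0111, adjusted 0.250) and rho = 0.83 (exact permutation p = 0.0583, adjusted 0.463), and r = 0.75 with the 2 farthest libraries left out. No pair passed the adjustment over 36.

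**Figure D3:**
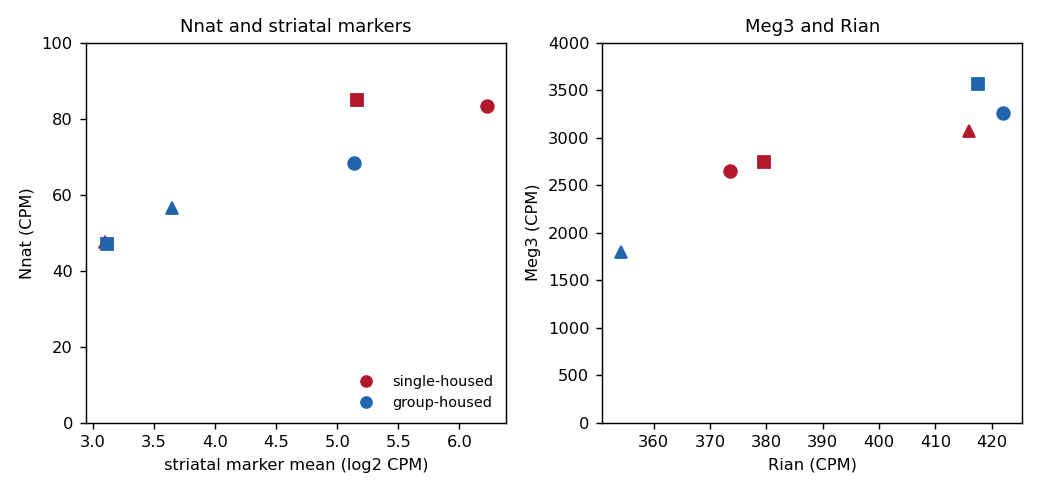
Left, Nnat (CPM) against the mean log2 CPM of 18 striatal markers; right, Meg3 against Rian (both CPM), one point per library with single-housed in red and group-housed in blue (circle, square and triangle for replicates 1, 2 and 3). Nnat is highest in the 2 single-housed libraries with the most striatal RNA, and group-housed replicate 3 is lowest for both Meg3 and Rian.

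Of 13783 genes with a mean above 1 CPM, those most like Meg3 over the 6 libraries by Pearson's r of log2 CPM were Adamts10, which encodes a secreted metalloprotease (r = 0.998), AF357359 (0.995) and Ubp1, which encodes a transcription factor (0.991). AF357359 is a row of 30 bases inside the span of Rian, between its exons, with 174 to 238 counts per library. Zfp871, Ggps1 and Thada were most like Peg3 (0.998, 0.997 and 0.996). The genes most like Grb10 were Zcchc16, Cntn5 and Rpgr (0.992, 0.991 and 0.990). Each is the top of 13782 values computed over only 6 libraries.

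Group-housed replicate 3 was the lowest library for 4 of the 8 imprinted genes above 1 CPM (Meg3, Rian, Mirg and Ndn), and for 14% of all 13783 genes at that level. It was also lowest for 11 of 27 other long noncoding RNAs above 1 CPM (40.7%), and for 6 of 46 other imprinted genes (13%). Snhg11, a neuronal long noncoding RNA and the highest per length of the listed ones, had 1570, 1729 and 1936 CPM in single-housed libraries, against 2125, 2074 and 1222 CPM in group-housed libraries. Miat, another nuclear long noncoding RNA, chosen after its values were seen, had 496, 578 and 658 CPM in single-housed libraries, against 649, 726 and 390 CPM in group-housed libraries. Both were lowest in the same library as Meg3. That library had 32088512 counts and a striatal marker mean of 3.65 log2 CPM, both within the range of the other libraries, and why it was lowest for these RNAs was not tested.

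**Figure D4:**
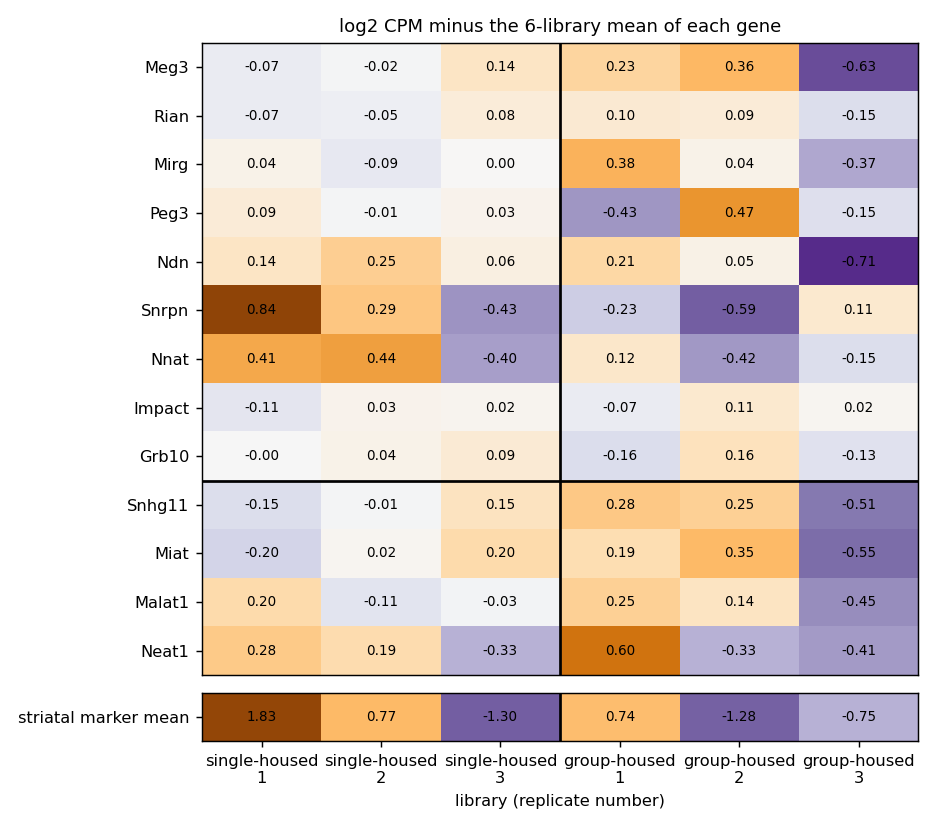
Deviation of log2 CPM from the 6-library mean of each gene, by library, for the 9 imprinted genes (upper block), 4 other long noncoding RNAs chosen after their values were seen (lower block) and the mean of 18 striatal markers (bottom row, own colour range). Group-housed replicate 3 is at −0.63 for Meg3 and −0.71 for Ndn, and Nnat follows the striatal row.

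Peg3 (chromosome 7, 6658671 to 6683130, minus strand, 9 exon intervals), which encodes a zinc finger protein known for its part in maternal behaviour in mice, had 154, 144 and 148 CPM in single-housed libraries, against 108, 202 and 131 CPM in group-housed libraries. The single-housed values sat close together inside a wide group-housed range. On the log2 scale single-housed minus group-housed was 0.02 (SE 0.194, 95% interval −0.42 to 0.46). Its antisense partner Peg3as lies wholly inside Peg3 on the other strand and had 0 counts in all 6 libraries. So did all 23 rows contained only in rows on the opposite strand, and this 0 is no measure of Peg3as. Peg3 shares 865 of its 6624 exon bases (13.1%) with it. The strand setting of the counting is not given in the sources used here. Whether reads over the shared bases entered the Peg3 row was not tested.

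Ndn (chromosome 7, 69493163 to 69494813, plus strand, 1 exon), which encodes necdin, a growth suppressor of postmitotic neurons, had 262, 284 and 247 CPM in single-housed libraries, against 276, 246 and 146 CPM in group-housed libraries. Group-housed replicate 3 was the low value, and the other 5 libraries lay between 246 and 284 CPM with the groups mixed. The log2 difference was 0.25 (SE 0.20, 95% interval −0.21 to 0.70), and 0.02 without that library.

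Snrpn (chromosome 7, 67127388 to 67285105, minus strand, 14 exon intervals), which encodes the SmN protein of the spliceosome, had 41, 28 and 16 counts in single-housed libraries, against 15, 13 and 23 counts in group-housed libraries. In CPM these were 1.25, 0.837 and 0.480 in the single-housed group and 0.564, 0.426 and 0.730 in the group-housed group. Single-housed replicates 1 and 2 were the highest, and the groups overlapped in the remaining 4 libraries. Single-housed minus group-housed, the log2 difference was 0.57 (SE 0.380), with a 95% interval between −0.29 and 1.44, the widest of the 9.

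Of the 2380 exon bases of Snrpn, 1970 (82.8%) are shared with the row of Snurf, which is read from the same transcript, and Snurf had 0 counts in all 6 libraries. Only 4 of the 14 exon intervals are free of Snurf, and they hold 410 bases. Over those bases alone the level of Snrpn would be 1.74 RPKM (1.04 to 3.05 over the libraries), against 0.300 RPKM over the whole deposited length. Whether reads over the shared bases entered the Snrpn row was not tested, so its deposited level is no measure of the whole transcript.

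Nnat (chromosome 2, 157385846 to 157388255, plus strand, 3 exon intervals), which encodes neuronatin, a small membrane protein of the endoplasmic reticulum, had 83.4, 84.9 and 47.6 CPM in single-housed libraries, against 68.3, 47.0 and 56.4 CPM in group-housed libraries. Single-housed replicates 1 and 2 were the highest and single-housed replicate 3 was at the level of the lowest group-housed library. Its log2 difference between the groups was 0.33 (SE 0.217, 95% interval −0.16 to 0.82).

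Nnat was high and low in much the same libraries as striatal RNA, of which 18 of 18 markers were higher in single-housed libraries. The mean log2 CPM of the 18 striatal markers was 6.23, 5.17 and 3.10 in single-housed libraries, against 5.13, 3.12 and 3.65 in group-housed libraries. Its correlation with log2 CPM of Nnat had r = 0.95 (exact permutation p = 0.0167, adjusted over the 9 genes 0.150) and rho = 0.89 (exact permutation p = 0.0333, adjusted 0.150). With the 2 libraries farthest from the median marker level left out, r was 0.94. In a fit with the striatal mean as a covariate, the housing difference of Nnat was 0.07 (SE 0.105). Snrpn had r = 0.83 with the same mean (exact permutation p = 0.0389, adjusted 0.175; rho 0.89, exact permutation p = 0.0333, adjusted 0.150), and 0.55 without the 2 farthest libraries. With the covariate its housing difference was 0.20 (SE 0.328). Impact ran the other way, with r = −0.81 (exact permutation p = 0.0611, adjusted 0.183) and −0.73 without the 2 farthest libraries. Its rho was −0.54 (exact permutation p = 0.297, adjusted 0.629). None of these relations passed the adjustment over 9. Oligodendrocyte markers, all 6 of which had counts in every library, also varied, with a summed level of 4040, 3829 and 1909 CPM in single-housed libraries, against 5147, 1882 and 2961 CPM in group-housed libraries. They too were lowest in single-housed replicate 3 and group-housed replicate 2, where Nnat was lowest, and the part of either cell type in the levels of Nnat was not tested beyond the striatal covariate.

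Impact (chromosome 18, 13130761 to 13151457, 11 exon intervals), which encodes an inhibitor of the amino acid sensing kinase GCN2, had 271, 299 and 297 CPM in single-housed libraries, against 278, 316 and 296 CPM in group-housed libraries. It was the steadiest of the 9, its highest value 1.16 times its lowest. On the log2 scale single-housed minus group-housed was −0.04 (SE 0.0784, 95% interval −0.22 to 0.14). As a list, 4 of the 5 paternally expressed genes were higher in single-housed libraries, where 50.7% of all tested genes were higher, and their median log2 difference was 0.25. That median was 0.02 without group-housed replicate 3 and 0.43 without group-housed replicate 1. It was −0.12 when the 3 libraries richest in striatal markers were left out, which leaves 1 single-housed and 2 group-housed libraries.

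Grb10 (chromosome 11, 11830502 to 11937423, minus strand, 18 exon intervals), which encodes an adaptor protein that restrains insulin receptor signalling, had 50.1, 51.5 and 53.5 CPM in single-housed libraries, against 44.9, 55.8 and 45.8 CPM in group-housed libraries. Here too the single-housed libraries lay inside the group-housed range. The log2 difference was 0.08 (SE 0.0947, 95% interval −0.13 to 0.30).

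**Figure D5:**
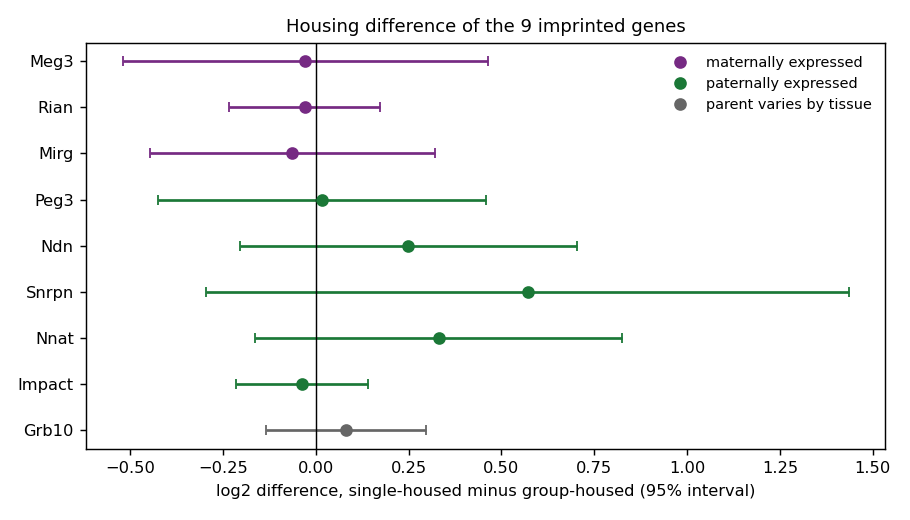
Log2 difference, single-housed minus group-housed, of each imprinted gene with its 95% interval from the edgeR fit (points and bars; n = 3 libraries in each group), coloured by active parent. All 9 intervals include 0, and the widest is that of Snrpn, between −0.29 and 1.44.

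The 9 genes differed in how much they varied between libraries of a group. The SD of log2 CPM within groups lay above the 85th percentile of the 13783 genes above 1 CPM for 5 of the 8 imprinted genes at that level: Meg3 (percentile 95.5), Nnat (95.5), Ndn (94.0), Peg3 (92.7) and Mirg (87.8). Grb10 (48.7), Rian (43.0) and Impact (24.1) were in the middle or lower part. The 85th percentile was not set in advance. In CPM, the single-housed and group-housed SD were 217 and 944 for Meg3, 0.814 and 4.73 for Mirg, and 5.14 and 48.8 for Peg3. They were 18.2 and 68.1 for Ndn, and for Nnat the order turned, at 21.1 and 10.7. Rian and Mirg come from the same domain as Meg3, and the percentiles of the 3 genes still spanned the range between 43.0 and 95.5.

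No other gene of these domains was called by edgeR. Dlk1, which encodes a membrane protein of the Notch ligand family, had 2.53, 2.54 and 0.510 CPM in single-housed libraries, against 1.09, 1.11 and 0.698 CPM in group-housed libraries, a log2 difference of 0.95 (SE 0.516) with overlapping groups. Rtl1, derived from a retrotransposon, differed by 0.17 (SE 0.251), and Dio3, which encodes a thyroid hormone inactivating deiodinase, by −0.03 (SE 0.269). Rtl1 lies on the minus strand between Meg3 and Rian, which are on the plus strand. Whether plus-strand reads entered the Rtl1 row was not tested, as the strand setting is not given. Begain, at the edge of the chromosome 12 domain, had 168, 153 and 168 CPM in single-housed libraries, against 184, 172 and 181 CPM in group-housed libraries, so that its groups did not overlap (−0.13, SE 0.0719, edgeR adjusted p = 0.9999).

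Around Ndn and Snrpn, the paternally expressed Magel2 and Mkrn3 differed by 0.12 (SE 0.259) and 0.14 (SE 0.201). The ubiquitin ligase gene Ube3a, expressed from the maternal copy in neurons, had 33.5, 33.3 and 37.9 CPM in single-housed libraries, against 29.8, 45.1 and 32.3 CPM in group-housed libraries, a difference of −0.03 (SE 0.150). The noncoding transcript Snhg14 runs antisense to Ube3a. Its row, listed as C230091D08Rik, lies outside the span of Ube3a and differed by 0.01 (SE 0.0973). Usp29, next to Peg3 and paternally expressed, differed by 0.08 (SE 0.110) and Zim1 by −0.06 (SE 0.314). Blcap, whose intron holds Nnat, had 87.7, 89.6 and 90.5 CPM in single-housed libraries, against 98.2, 82.6 and 90.4 CPM in group-housed libraries (−0.02, SE 0.0783). Ddc and Cobl, beside Grb10, differed by −0.04 (SE 0.282) and −0.02 (SE 0.160). The groups overlapped for all of these except Begain.

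Of 62 further imprinted genes on a list, 61 had a row and 51 were tested. edgeR called 0 of them, 25 were higher and 26 lower in single-housed libraries, and the median log2 difference was 0.00. The smallest p belonged to Kcnq1, a maternally expressed potassium channel gene, at 0.794, 0.927 and 0.780 CPM in single-housed libraries, against 0.526, 0.556 and 0.540 CPM in group-housed libraries (0.62, SE 0.228, edgeR adjusted p = 0.9999). Its groups did not overlap. Kcnq1ot1, the long noncoding RNA read antisense within Kcnq1, differed by 0.31 (SE 0.162). Kcnq1ot1 is 1 interval of 83437 bases inside the span of Kcnq1 on the other strand, and Kcnq1 has 3029 exon bases in 16 intervals. Reads over any exon bases that they share cannot be told apart without the strand setting. The highest per length were Gnas, a G protein alpha subunit gene (273 RPKM), Cd81, a tetraspanin gene (190 RPKM), and Nap1l5 (179 RPKM), a range in which Meg3 also falls. Among the maternally expressed genes of the list 10 were higher and 13 lower (median −0.02), and among the paternally expressed ones 15 were higher and 10 lower (median 0.05).

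Of 35 other long noncoding RNAs on a list, 30 had a row and 28 were tested. edgeR called 0 of them. In single-housed libraries 6 were higher and 22 lower (median log2 difference −0.05), and groups did not overlap for 3 (10.7%, against 4.86% of all tested genes). Group-housed replicate 1 was the highest library for 18 of the 27 above 1 CPM (66.7%), against 26.3% of all genes at that level, and without it the median was 0.012. Those 3 had the smallest p: Rmrp, the RNA of the ribonuclease MRP (−0.73, SE 0.269, edgeR adjusted p = 0.9999), Dleu2 (−0.31, SE 0.139) and 2410004N09Rik (−0.26, SE 0.145). Rmrp was at 0.458, 0.418 and 0.510 CPM in single-housed libraries, against 0.977, 0.655 and 0.698 CPM in group-housed libraries. These values rest on only 14 to 26 counts per library. After Snhg11 (303 RPKM), the highest per length were 2900097C17Rik, the mouse counterpart of NORAD (103 RPKM), and 2610017I09Rik (67.5 RPKM), and Meg3 and Rian lay among these levels.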

How the data were processed

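Polyadenylated RNA was sequenced from 6 prefrontal cortex libraries, 3 single-housed and 3 group-housed, grouped by the housing label. Per the file headers, the deposited values are raw read counts per gene, laid out as featureCounts writes them, and the authors applied no normalization. Exon bases per gene, also deposited by the authors, served only for RPKM; exon coordinates are mm9. The submitters' processing notes name FastQC, STAR, featureCounts and mm9; the versions, the annotation release and whether strand was used were not given in the sources used here.

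Counts were tested with edgeR 4.0.16 in R 4.3.3 (quasi-likelihood F-test, TMM, minimum count 10, minimum total count 15, Benjamini-Hochberg adjustment over 15258 genes, threshold 0.05), after the script was tested on simulated data. Standard errors came from the F statistic. RPKM used TMM library sizes, log2 CPM a prior count of 2, and correlations exact permutation tests in scipy 1.17.1. Totals of 25858355 to 33428512 counts gave 13 to 41 counts for Snrpn and at least 436 for the other 8 genes. Intervals over libraries include counting error; floors of 3 counts cover counting error only.

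Alternatives were DESeq2 1.42.0, its size factors, limma-voom (limma 3.58.1), other filters, robust empirical Bayes, a striatal covariate, a replicate block, each library left out, and, added after the data were seen, leaving out the 3 libraries with the highest striatal markers. Genes named beside the 9 were those of the same domains, those with overlapping exons, the 3 per list with the smallest p and the 3 highest per length, and the 3 most like Meg3, Peg3 and Grb10; exceptions are stated. The 9 genes and the lists were chosen with earlier results of these data known. RefSeq sequences (GRCm38.p6) were matched by symbol, and mm9 coordinates were not converted. Impact sequence is not shown.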

Additional observations from a re-analysis of the deposited data

How the results depend on the processing

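The number of the 9 imprinted genes called was 0 in every alternative run with at least 2 libraries in each group, DESeq2 and limma-voom included. Over the whole table, edgeR called 0 genes, DESeq2 called 8, and leaving out a library gave 0 to 1. Without the 3 libraries with high striatal markers (1 single-housed library against 2 group-housed, the lone one assumed to vary like the others), 4 genes were called. Same-numbered libraries had correlations of deviations of 0.271, −0.318 and 0.170, and differently numbered ones ran between −0.429 and 0.350. With 3 libraries in each group, these values cannot show whether replicate numbers pair the libraries. The fit with the replicate number as a block gave 0 calls and a Meg3 difference of 0.026.

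The sign of several differences turned. Meg3 was at 0.031 with limma-voom and Impact at 0.0071 with the striatal covariate. Without the 3 high-striatal libraries, Meg3 was at 0.19, Rian at 0.11, Mirg at 0.15, Peg3 at −0.17, Snrpn at −0.27 and Nnat at −0.12, and the paternal median was −0.12. Leaving out each library moved Meg3 between −0.28 and 0.16, Rian between −0.11 and 0.015, Mirg between −0.24 and 0.13, Peg3 between −0.16 and 0.31, and Impact between −0.081 and 0.010. The differences of Ndn (0.020 to 0.43), Snrpn (0.20 to 0.86), Nnat (0.20 to 0.56) and Grb10 (0.025 to 0.19) stayed above 0 when any 1 library was left out. Over the same fits the median of the 9 genes ran between −0.039 and 0.19, the maternal median between −0.24 and 0.071, the paternal median between 0.020 and 0.43, that of the other imprinted genes between −0.026 and 0.052, and that of the other long noncoding RNAs between −0.15 and 0.012. The number of the 9 genes with groups that did not overlap, 0 with all libraries, was 0 to 3 with a library left out, where 9.01% to 22.7% of all tested genes separated, and 1 without the 3 high-striatal libraries, where 53.6% did. The 3 were Meg3, Rian and Mirg without group-housed replicate 3, which was the lowest library for them (11% of all tested genes separated there). Without division by length, 2 genes kept their place in the order of levels. Snrpn falls out under a filter of mean CPM above 1, which gave it no value. The causes were not tested. With 13 to 41 counts, Snrpn is the gene for which low counts limit the precision most, and 82.8% of its exon bases are shared with Snurf.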
